A study of Mus musculus with 34 samples.

Results

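A group of 8 pituitary lineage genes was followed through 34 slabs of neonatal mouse brain. Cga and Tshb were chosen by their signals, which had been seen to be highest in the same fractions (coronal 7, horizontal 8 and sagittal 6). The other 6 genes, Pitx1, Lhx3, Lhx4, Pou1f1, Hesx1 and Gh, were added by their known part in the gland. Every probe on the array whose RefSeq accession belonged to one of these genes was taken, which gave 1 probe per gene of 55681 probes in all. The question was whether these 3 fractions carried the genes known from the pars tuberalis or those known from the whole pituitary.

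The samples came from 3 male C57BL/6J mice at 3 days of age. Each brain was cut along a single axis into slabs of 500 micron, each made of 100 slices of 5 micron, and RNA of a slab was hybridised to 1 single-colour array. The coronal series (mouse 1) held 15 fractions, the horizontal series (mouse 2) 8 and the sagittal series (mouse 3) 11, the first and last of which each pooled 2 neighbouring cuts. No treatment or genotype differed between the mice, an axis and a mouse cannot be told apart, and no fraction was measured in a second animal. No test between fractions was therefore possible, and differences are set against the spread over the other fractions of a series.

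The pituitary gland hangs below the hypothalamus. Its anterior lobe holds cells that make growth hormone, prolactin, thyrotropin, the gonadotropins and corticotropin. The pars tuberalis is a thin sheet of the same origin that wraps the stalk and underlies the median eminence, next to the arcuate nucleus. Its endocrine cells are best known for making Cga and Tshb, the subunits of thyrotropin, and for carrying melatonin receptors. Cga encodes the alpha subunit that thyrotropin shares with the gonadotropins, and Tshb the beta subunit that makes the hormone thyrotropin. PITX1, LHX3, LHX4 and HESX1 are homeodomain factors of the early gland, and POU1F1 is the POU factor required for growth hormone, prolactin and anterior lobe thyrotropin cells. Pars tuberalis thyrotrophs are known to make thyrotropin without POU1F1. Several of these factors also act in the brain, LHX3 and LHX4 in hindbrain and spinal neurons among them.

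The promoters of Cga and Tshb are shown because these are the genes whose peaks defined the 3 fractions. Both are 250 bases of RefSeq sequence before the annotated start, 5′ to 3′ on the gene's strand, in the mouse build GRCm38.p6. The Cga stretch lies at chr4:34893529-34893778 on the plus strand and the Tshb stretch at chr3:102782715-102782964 on the minus strand. Capitals mark letters matching a searched motif on either strand.
Cga: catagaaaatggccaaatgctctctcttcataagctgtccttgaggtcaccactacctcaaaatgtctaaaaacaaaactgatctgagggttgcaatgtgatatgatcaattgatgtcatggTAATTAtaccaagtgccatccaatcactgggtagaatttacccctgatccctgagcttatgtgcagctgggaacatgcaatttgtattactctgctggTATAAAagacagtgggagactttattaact
Tshb: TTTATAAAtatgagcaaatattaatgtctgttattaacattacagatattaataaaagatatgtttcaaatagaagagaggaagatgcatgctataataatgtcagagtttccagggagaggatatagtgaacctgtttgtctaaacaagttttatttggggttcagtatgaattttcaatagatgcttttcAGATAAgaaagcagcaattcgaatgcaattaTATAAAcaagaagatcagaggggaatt

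The search covered TAATCC, letters bound by PITX factors, and TAATTA, a core bound by many homeodomain proteins. It also covered AGATAA, which the GATA family binds, ACGTCA, which is part of the cyclic AMP response element, and TATAAA for the core promoter box. The Cga promoter held TAATTA starting 128 bases before the start and TATAAA at 30 bases. The Tshb promoter held AGATAA at 58 bases, TATAAA at 27 and 248 bases, and a match on the other strand at 250 bases that overlaps the last. Among 32851 promoter windows of 250 bases, TAATTA was present in 4.84%, AGATAA in 9.99% and TATAAA in 12.4%. TAATCC, present in 6.25% of those windows, and ACGTCA, present in 6.47%, matched neither promoter.

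Values below are log2 signals relative to the 75th percentile of the same array. A probe was called well above background by the scanner software's own flag. Per array, 27011 to 34168 probes passed that flag, and the lowest passing signal lay between -5.58 and -4.21. Replicate spots of a probe differed with an SD of 0.07 to 0.12, taken only over brighter probes spotted several times. That SD does not describe dim readings of a single spot. Levels of different probes are not comparable, so each gene is compared only with itself. Neither axis direction nor the end at which counting began is given in the labels. The hindbrain gene Hoxb5 was highest in coronal 2 and horizontal 6, and the cortical gene Emx1 in coronal 15 and horizontal 2. Sagittal 6 was cut 7 of 13, the middle of that brain by count.

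Cga was close to an all-or-none signal. In the coronal series it read -0.76 in fraction 7 and -1.36 in fraction 8, and both were well above background. The other 13 coronal fractions ran from -7.52 to -6.15, and none passed the flag. In the horizontal series fraction 8 read 0.44 and the other 7 fractions lay between -7.45 and -6.38. In the sagittal series fraction 6 read -0.22, while its neighbours, fractions 5 and 7, read -7.22 and -5.88 and fraction 3, the second highest, read -4.96. The series medians were -6.77, -7.03 and -6.84, which is the background of this probe. No unflagged fraction came near the flagged ones, and only coronal 8 shared the signal with a neighbouring slab. Because dim readings give only a bound, each array that did not pass was set to the higher of its own reading and its lowest passing signal. Above the mean of these bounds the highest fraction was at least 17.5-fold (coronal), 48.9-fold (horizontal) and 29.1-fold (sagittal). Against the median of the other fractions the differences were 6.01, 7.59 and 6.65, where those fractions had SDs of 1.52, 0.34 and 0.76. These peaks chose the fractions, so they are a description only.

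Tshb had the same highest fractions at signals only just above background. It read -4.51 in coronal 7, -3.58 in horizontal 8 and -4.21 in sagittal 6, all flagged as well above background. Coronal 8 read -5.15 and did not pass, whereas coronal 2, far from the peak, did pass at -5.25. The other horizontal fractions lay between -7.48 and -5.84 and the other sagittal fractions between -7.70 and -5.51. The series medians were -6.36, -6.61 and -6.31. The differences from the median of the other fractions were 1.85, 3.06 and 2.21, against SDs of 0.62, 0.65 and 0.70. Above the mean of the bounds for fractions that did not pass, Tshb was at least 1.27-fold, 3.02-fold and 1.84-fold. These peaks also chose the fractions and are a description, and they rested on dim readings of a single spot per array. With normexp background correction and an offset of 50, which adds to every signal and so compresses low ones, the Tshb differences shrank to 0.27, 0.67 and 0.31, and those of Cga to 2.25, 3.41 and 2.66.

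Gh, the growth hormone gene and the most abundant product of the anterior lobe, was not well above background in any of the 34 fractions. It read -5.69 in coronal 7, -5.72 in horizontal 8 and -5.88 in sagittal 6, within its range of -7.73 to -5.39 and near its median of -6.08 over all fractions. The highest Gh reading of all, -5.39, was in horizontal 2, away from the Cga signal. Of all probes on the array, 22.4% were likewise flagged in no fraction. The Gh reading is thus an upper bound set by background, and not a measured absence.

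**Figure D1:**
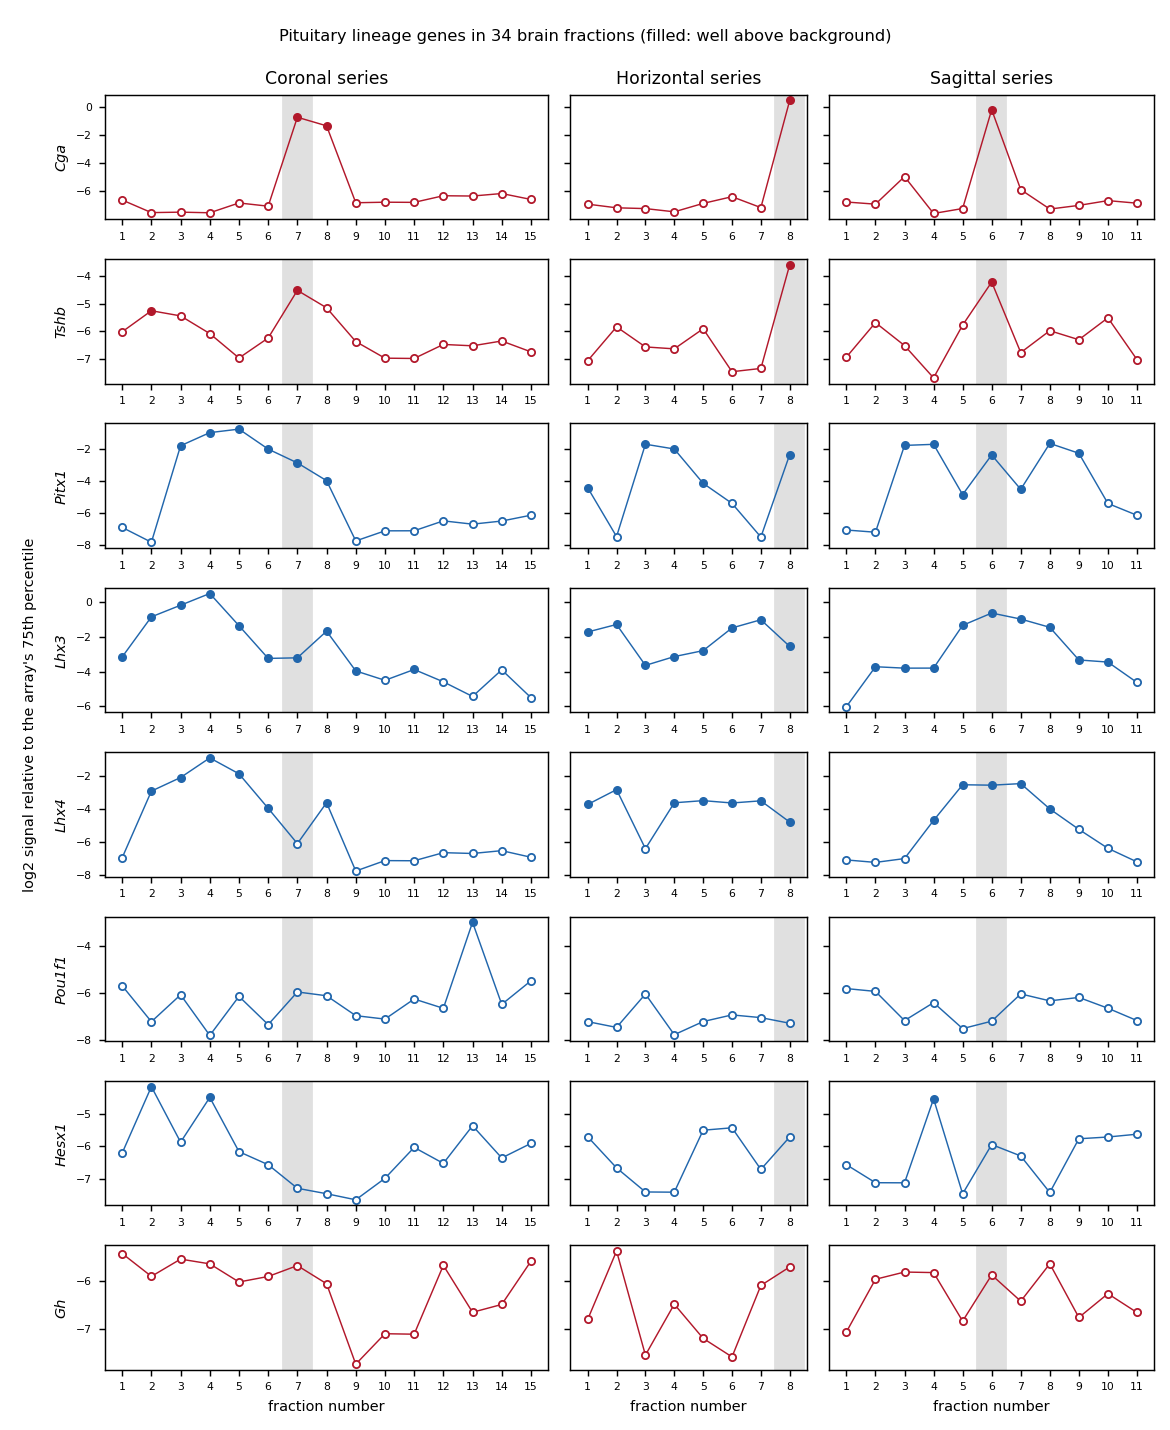
Log2 signal relative to the 75th percentile of the array (y axis, a separate range for each gene) against fraction number (x axis) for the 8 genes, with 1 array per point, filled where the probe was well above background and open where it was not. Grey bands mark coronal 7, horizontal 8 and sagittal 6, where Cga reads -0.76, 0.44 and -0.22 and Tshb peaks with it, while Pou1f1, Hesx1 and Gh have no filled point in any band.

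Pitx1 was present in the 3 fractions without being highest there, and over all 34 it ran from -7.82 to -0.74 with a median of -4.67. In the coronal series it was well above background from fraction 3 to fraction 8, at -1.78, -0.96, -0.74, -1.99, -2.85 and -3.96, and at -6.12 or less elsewhere. Coronal 7 and 8 lay on the falling side of a broad peak centred on fractions 4 and 5. In the horizontal series Pitx1 had separate highs, at -1.68 and -1.98 in fractions 3 and 4 and at -2.33 in fraction 8. Between them fractions 6 and 7 read -5.38 and -7.49 and did not pass, so horizontal 8 stood alone at its end of the brain. In the sagittal series fraction 6 read -2.36, above its neighbours at -4.83 and -4.51. The higher sagittal readings lay to both sides, at -1.76 and -1.69 in fractions 3 and 4 and at -1.63 and -2.25 in fractions 8 and 9. Horizontal 8 and sagittal 6 were therefore local maxima of Pitx1, at 2.08 and 2.31 above the median of the other fractions, and coronal 7 stood 3.63 above it with no local maximum.

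Lhx3 was detected widely, in 10 coronal, 8 horizontal and 9 sagittal fractions. Over all 34 it ran from -6.02 to 0.51 with a median of -3.18. Its coronal high, 0.51, was in fraction 4, and it read -3.24 and -3.21 in fractions 6 and 7. It read -1.67 in coronal 8 and -3.96 in coronal 9, which made coronal 8 a small second peak. In the horizontal series it was highest at -1.01 in fraction 7 and read -2.55 in fraction 8, where its difference from the median of the other fractions was -0.84. In the sagittal series fraction 6 was highest at -0.62, but fractions 5, 7 and 8 were near it at -1.33, -0.97 and -1.45. Lhx3 was thus broad around the middle of the brain, unlike the single sagittal fraction of Cga.

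Lhx4 followed Lhx3, with a range of -7.75 to -0.87 and a median of -4.72. Coronal 4 was highest at -0.87, coronal 7 did not pass at -6.08, coronal 8 passed at -3.60, and coronal 9 did not pass at -7.75. The coronal peak of fraction 8 thus stood alone for Lhx4, next to the fraction where Tshb was highest and inside the pair where Cga was detected. In the horizontal series Lhx4 was highest at -2.80 in fraction 2 and read -4.78 in fraction 8, lower than the other fractions that passed. In the sagittal series fractions 5, 6 and 7 read -2.51, -2.53 and -2.44, a plateau with no single high.

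Pou1f1, required for the growth hormone, prolactin and anterior lobe thyrotropin cells, was well above background in 1 of 34 fractions. That was coronal 13, at -2.99, among fractions where forebrain genes were highest, with neighbours at -6.64 and -6.47 and a median over all fractions of -6.63. In coronal 7, horizontal 8 and sagittal 6 it read -5.94, -7.27 and -7.18, all below the flag. Hesx1, a repressor of early gland and forebrain development that normally fades before birth, passed in 3 fractions: coronal 2 at -4.18, coronal 4 at -4.51 and sagittal 4 at -4.55. None of them was a fraction with Cga, where it read -7.28, -5.71 and -5.94 beside a median of -6.24 over all 34. These isolated readings of single spots had no replicate to check them.

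Of the 8 members, 5 (Cga, Tshb, Pitx1, Lhx3 and Lhx4) passed the background flag somewhere in every series, as were 61.4% of all probes, and none was so in all 34 fractions, as 45.6% of all probes were. Counted by fraction, 4 members were well above background in coronal 7 and 5 in each of horizontal 8 and sagittal 6. Over all probes the shares were 57.2%, 57.2% and 57.1%, so detection as such did not set the members apart. The 4 that passed in all 3 at once (Cga, Tshb, Pitx1 and Lhx3) stood beside 52.9% of all probes. Members that were well above background and at least 2-fold above the median of the other fractions numbered 3 in coronal 7 (Cga, Tshb and Pitx1), 3 in horizontal 8 (the same genes) and 5 in sagittal 6 (with Lhx3 and Lhx4). The shares of all probes were 1.89%, 2.16% and 2.7%. In all 3 fractions at once this held for Cga, Tshb and Pitx1, among 27 probes of 55681 or 0.0485%. Since Cga and Tshb chose the fractions, only Pitx1 adds to that count, and it entered the list with earlier results known. Without Cga and Tshb, the median difference of the remaining 6 members was 0.38 in coronal 7, 0.44 in horizontal 8 and 1.40 in sagittal 6, beside 0.01, -0.02 and -0.06 over 34186 probes detected in every series. Some of these members were below the flag in these fractions, so the medians include background readings.

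The other genes of the gland were mostly low or did not share the peaks. Of 7 hormone subunit genes, 4 were well above background in each of the 3 fractions: Cga, Tshb, Lhb and Pomc. Of all probes, 57.2%, 57.2% and 57.1% were so. Lhb, the luteinizing hormone beta subunit, was flagged in all 34 fractions and differed from the median of the others by -0.56, -0.14 and 0.02, so it showed no peak. Fshb, the follicle-stimulating hormone beta subunit, passed only in sagittal 11, at -3.60. Prl, the prolactin gene, passed only in coronal 3, at -4.05, and read -7.05, -7.28 and -5.43 in coronal 7, horizontal 8 and sagittal 6. Pomc, the precursor of corticotropin in the gland and of melanocortins in arcuate neurons, was flagged everywhere and highest in coronal 8 (1.43), horizontal 8 (1.89) and sagittal 6 (1.15). Its coronal 7 value, 0.63, was within the range of the frontal fractions.

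Of 16 pituitary transcription factors, 10, 11 and 11 were well above background in coronal 7, horizontal 8 and sagittal 6, and 5, 4 and 7 were at least 2-fold higher there. The shares of all probes were 57.2%, 57.2% and 57.1% for the flag, and 1.89%, 2.16% and 2.7% for 2-fold. Six6, a homeodomain factor of gland, retina and hypothalamus, was highest in coronal 9 at -1.15, in horizontal 8 at -0.84 and in sagittal 6 at -0.92. Pax7, known from the intermediate lobe and the midbrain, was well above background in coronal 7 at -2.36 and in sagittal 6 at -1.49, at 3.19 and 1.77 above the median of the others, and did not pass in horizontal 8. Tbx19, the corticotroph factor, passed in none of the 34. Neurod4, a proneural factor, passed once in each series, in coronal 8, horizontal 2 and sagittal 5.

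Of 7 receptor genes known from anterior lobe cells, 5, 4 and 5 were well above background in the 3 fractions and 2, 1 and 1 were at least 2-fold higher. Among all probes, 57.2%, 57.2% and 57.1% were flagged there, and 1.89%, 2.16% and 2.7% were at least 2-fold higher. Ghrhr, the growth hormone releasing hormone receptor of somatotrophs, passed in none of the 34 fractions. Gnrhr, the gonadotroph receptor, passed only in coronal 6, at -2.79. Trhr, the thyrotropin-releasing hormone receptor, also made by many neurons, was flagged throughout and stood 0.45, 1.34 and -0.15 from the median of the others. Ghsr, the ghrelin receptor of somatotrophs and of hypothalamic neurons, passed in coronal 7 at -4.29 and in sagittal 6 at -3.75, at 1.33 and 1.85 above the median of the others, and did not pass in horizontal 8. Of 3 probes for Esr1, an estrogen receptor of gland and brain, 1 passed in all of coronal 7, horizontal 8 and sagittal 6, at 1.30, 0.32 and 0.77 above the others, and the remaining probes passed in none of them.

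The list for the pars tuberalis held 6 genes, 4 of which are members. The remaining ones are Mtnr1a, the melatonin receptor, and Eya3, a coactivator that responds to season. One Mtnr1a probe read -3.64 in horizontal 8 and -4.02 in sagittal 6, well above background and highest of both series, at 2.79 and 1.79 above the median of the others. In coronal 7 the same probe read -5.97 and did not pass, and its coronal high was in fraction 9, at -4.34. The second Mtnr1a probe passed only in coronal 9, at -1.69, and so disagreed with the first in horizontal 8 and sagittal 6. Eya3 was flagged everywhere and differed by -0.08, -0.21 and -0.19. Counting a gene when any of its probes passed, 5, 6 and 6 of the 6 genes were well above background in the 3 fractions and 3, 4 and 5 were at least 2-fold higher. Cga and Tshb are in all of these counts because they chose the fractions. The others at least 2-fold higher were Pitx1 in each, Mtnr1a in horizontal 8 and sagittal 6, and Lhx3 in sagittal 6. Over all probes, 57.2%, 57.2% and 57.1% were well above background, and 1.89%, 2.16% and 2.7% were at least 2-fold higher.

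**Figure D2:**
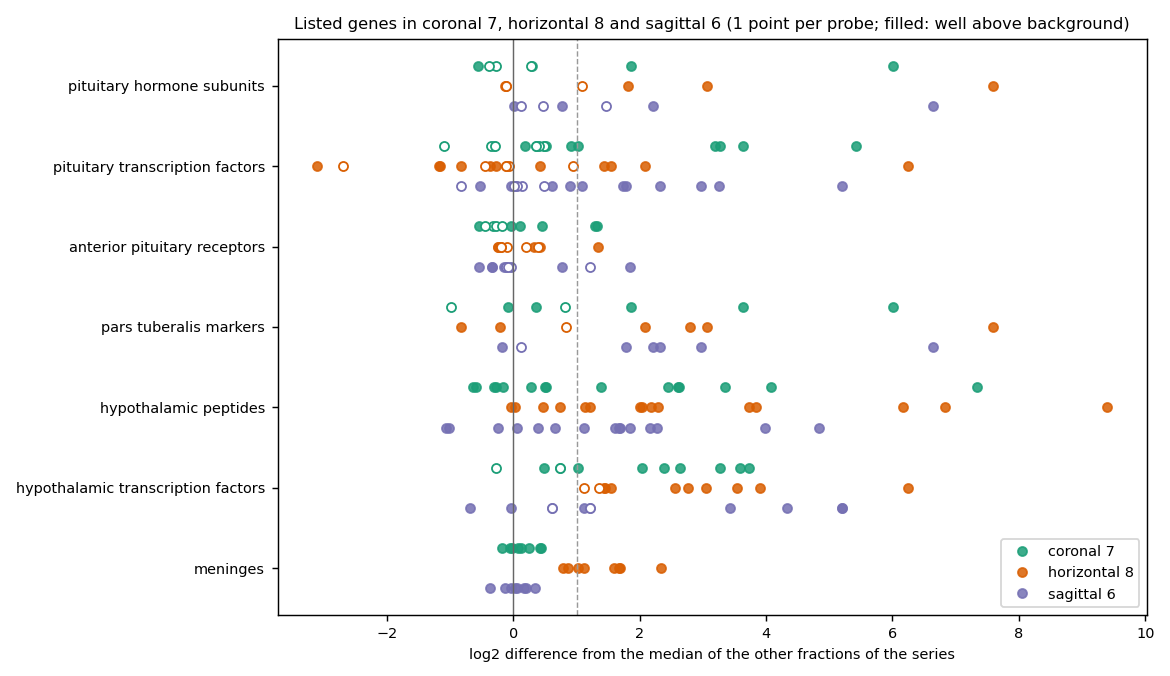
Log2 difference (x axis) between each probe's signal in coronal 7, horizontal 8 or sagittal 6 and the median of the other fractions of that series, for 7 gene lists (y axis), with 1 point per probe, filled where well above background in that fraction; the dashed line marks 2-fold. Among hormone subunits the filled points beyond the dashed line are Cga, Tshb and, in horizontal 8, Pomc, while hypothalamic transcription factors lie mostly to the right of the dashed line and meningeal genes do so only in horizontal 8.

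Many hypothalamic genes were high in the same fractions as Cga and Tshb. All 14 hypothalamic peptide genes were well above background in each fraction, and 6, 10 and 8 of them were at least 2-fold higher. Of 11 hypothalamic transcription factors, 9 were well above background in each, and 7, 9 and 6 were at least 2-fold higher. Of the 27 probes at least 2-fold higher in all 3 fractions, 10 belonged to these lists: Agrp, Avp, Ghrh, Kiss1 with 2 probes, Rax, Six6, Nkx2-1, Hmx2 and Hmx3. Six6 was also listed as a pituitary transcription factor, and Rax and Nkx2-1 as pituicyte and tanycyte markers. Of those 9 markers, 8 were well above background in each fraction, and only Rax and Nkx2-1 were at least 2-fold higher in any. For all probes these shares were 57.2%, 57.2% and 57.1%, and 1.89%, 2.16% and 2.7%.

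A narrower set was highest in coronal 7, horizontal 8 and sagittal 6 at once. Among 34186 probes detected in every series, 30 met this, or 0.0878%, while 4.34% of probes detected in the coronal series were highest in coronal 7, 11.3% of the horizontal ones in horizontal 8 and 10.7% of the sagittal ones in sagittal 6. Ranked by the smallest of the 3 differences from the median of the other fractions, Cga had rank 1 (6.01) and Tshb rank 5 (1.85). Between them stood Agrp (4.08), Rax (3.05) and Ghrh (2.27). After them came Kiss1 with 2 probes (1.69 and 1.67), Fzd5 (1.23), Ppp1r17 (1.15) and DXBay18 (0.89). Of the 30, 9 were at least 2-fold higher in all 3, or 0.0263%, and these are the probes from Cga to Ppp1r17. Agrp, Ghrh and Kiss1 are neuropeptide genes of the arcuate nucleus, and Rax is a homeodomain gene of tanycytes and the ventral hypothalamus. No gene of that group other than Cga and Tshb is a hormone of the gland.

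Agrp tracked Cga most closely of all probes. It read 1.06 in coronal 7 and 1.06 in coronal 8, 2.63 in horizontal 8 and 1.83 in sagittal 6. In the adjoining slabs it was low, at -3.05 in coronal 6, -3.01 in coronal 9, -3.83 in horizontal 7 and -2.85 in sagittal 5. Sagittal 7, at -0.81, was intermediate for Agrp, whereas Cga there was not well above background. Unlike Cga, Agrp was flagged in all 34 fractions. Across the 34 fractions Pearson's r between the 2 genes was 0.93, with 0.92 for the coronal, 0.99 for the horizontal and 0.89 for the sagittal fractions alone. Fractions of a series share a brain and neighbouring slabs, so these correlations are descriptions.

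**Figure D3:**
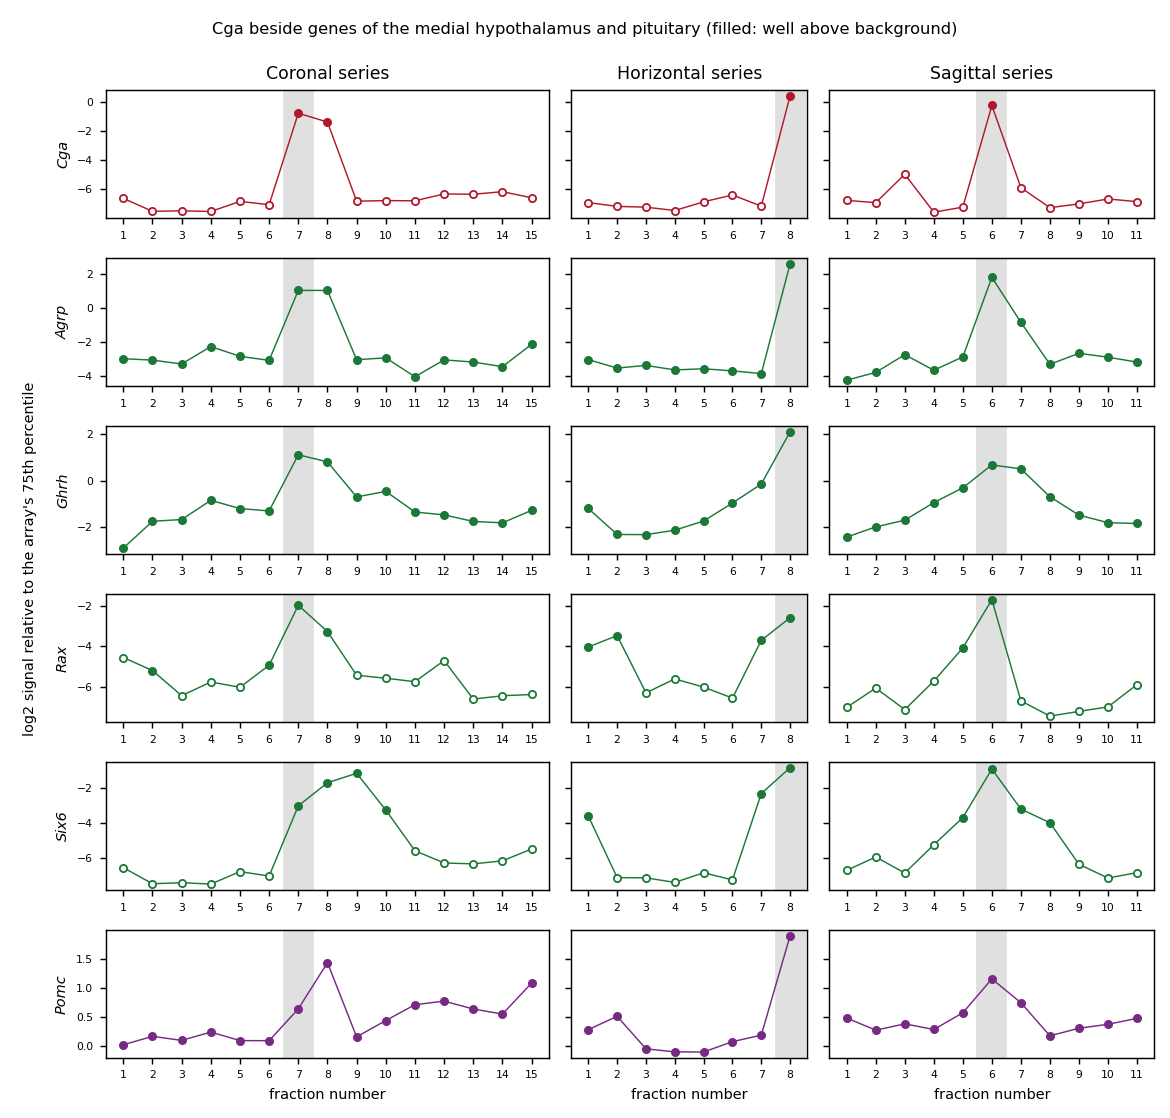
Log2 signal relative to the 75th percentile of the array (y axis, a separate range for each gene) against fraction number (x axis) for Cga, the hypothalamic genes Agrp, Ghrh, Rax and Six6, and Pomc, with 1 array per point, filled where well above background. Agrp repeats the coronal pair 7 and 8 and the single horizontal and sagittal highs of Cga, while Ghrh and Rax slope more gently around the grey bands, and the coronal high of Pomc is in fraction 8.

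After Agrp, the probes most like Cga included Kiss1 (r = 0.77), Pomc (0.76), Ghrh (0.75), Tshb (0.71), Tbx3 (0.70), a second Kiss1 probe (0.67), Rax (0.67) and Six6 (0.64), all over 34 fractions. Those most like Tshb were Agrp (0.74), Cga (0.71), Dcdc2a (0.58), Tbx3 (0.57), Rax (0.56), Cited1 (0.55), Kiss1 (0.52), Me2 (0.51), a probe without a gene symbol (0.50) and Pomc (0.50). An r of at least 0.85 was reached by 1 probe with Cga and by none of 34185 with Tshb. The correlation of Cga with Tshb, 0.71, rested on the 3 highest fractions: it was 0.23 over the 31 others, and Spearman's rho over all 34 was 0.14. Of those 31, Cga passed only in coronal 8 and Tshb only in coronal 2, so nearly all of their readings were at background. Over the same 31, r with Cga was 0.77 for Agrp, 0.67 for Pomc, 0.43 for Ghrh and 0.37 for Six6. It was 0.29 for Tbx3, 0.28 for the first Kiss1 probe and 0.20 for Rax. Spearman's rho with Cga over all 34 was 0.62 for Pomc, 0.47 for Agrp and Six6, and 0.45 for Tbx3. It was 0.39 for that Kiss1 probe, 0.26 for Ghrh and 0.09 for Rax.

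**Figure D4:**
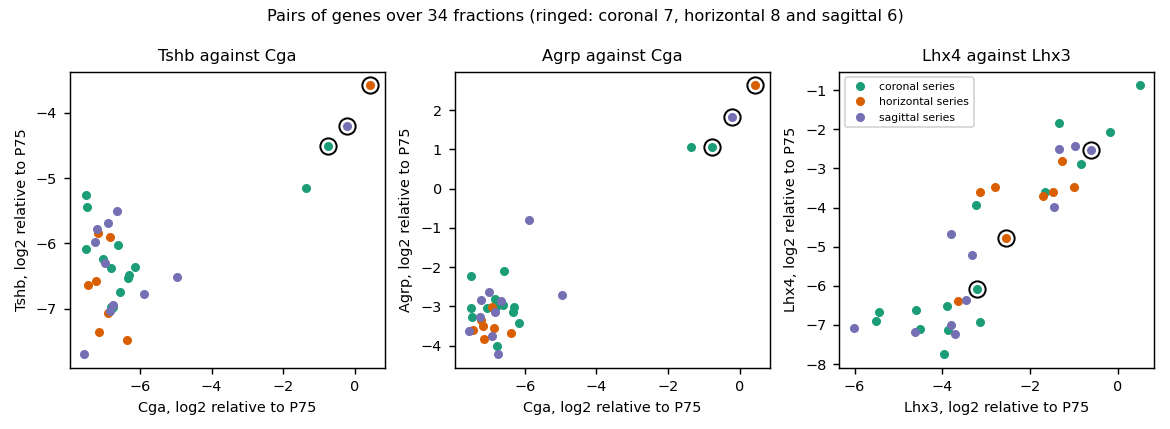
Log2 signal relative to the 75th percentile (P75) of the array for Tshb against Cga, Agrp against Cga and Lhx4 against Lhx3, with 1 point per fraction, coloured by series; black rings mark coronal 7, horizontal 8 and sagittal 6. The ringed fractions stand apart at the upper right in the first and second plots (r of 0.71 and 0.93) and lie inside the cloud in the last (r of 0.89).

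Lhx3 and Lhx4 were alike, and none of the transcription factors among the members was like Cga. Lhx3 and Lhx4 had r = 0.89 with each other over 34 fractions and 0.89 over the 31 without coronal 7, horizontal 8 and sagittal 6. Pitx1 had r = 0.36 with Lhx3 and 0.47 with Lhx4. With Cga, Lhx3 had r = 0.09, Lhx4 0.01, Pitx1 0.22, Pou1f1 0.01 and Hesx1 -0.14. The probes most like Lhx3 were one without a symbol (0.91), Lhx4 and Padi2 (0.88). Those most like Lhx4 were the same unnamed probe (0.93), Lhx3 and Gch1 (0.89), a gene of tetrahydrobiopterin synthesis used by monoamine neurons. Lhx3 had 5 probes and Lhx4 had 8 at an r of at least 0.85. Pitx1 was most like C1ql4 (0.78), Tpsg1 (0.75) and Luzp2 (0.74), and Hesx1 most like Aldh1l1 (0.62), Mapkapk3 (0.61) and Cnp (0.59), with none at 0.85. Hesx1 passed the flag in 3 and Pou1f1 in 1 of the 34 fractions, so every r given for them rests mostly on background readings.

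Markers of other tissue were also high in horizontal 8 and, in part, in sagittal 6. In horizontal 8, 6 of 8 meningeal genes were highest of the series and at least 2-fold above the median of the others. Of probes detected in that series 11.3% were highest there, and 2.16% of all probes were at least 2-fold higher. The summed linear level of the meningeal genes was 259 times the array's 75th percentile against 66.7 to 147 in the other fractions. In coronal 7 and sagittal 6 none of these 8 was 2-fold higher, and the sums, 81.9 and 91.7, lay inside the ranges of their series. Ibsp, a bone matrix gene, was highest in horizontal 8 by both of its probes. They read 1.99 and 0.57, at 6.96 and 7.78 above the median of the others. The summed bone and cartilage level there, 5.11, was second to 14.7 in horizontal 6. Of 7 sensory ganglion genes, 4 were at least 2-fold higher in horizontal 8, beside the same 2.16% of all probes. However, the sum of the sensory ganglion genes, 3.10, lay within the 2.22 to 5.35 of the other fractions. In sagittal 6 the summed skeletal muscle level, 2.54, and bone and cartilage level, 2.63, were the highest of the series, whose other fractions reached 2.27 and 1.95. There a probe of Cldn4, a tight junction gene of epithelia, read -1.46 and was 5.57 above the others, but a second Cldn4 probe differed by -0.11. In coronal 7 none of the summed levels for meninges, bone, muscle, sensory ganglion or epithelium was the highest of its series. The part of these tissues in the Cga and Tshb values was not tested.

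By list, then, coronal 7, horizontal 8 and sagittal 6 each held flagged signals of Cga, Tshb, Pitx1 and Lhx3. Lhx4, and Mtnr1a by 1 probe, were flagged in horizontal 8 and sagittal 6. A flag alone set no gene apart, as 57.2%, 57.2% and 57.1% of all probes passed in these fractions. Lhx3 stood 0.35, -0.84 and 2.96 from the median of the others, and Lhx4 -1.17 in horizontal 8 and 3.26 in sagittal 6. The 3 fractions held no flagged signal of Gh, Prl, Fshb, Pou1f1, Hesx1, Tbx19, Ghrhr or Gnrhr. The coronal 8 slab, which also carried Cga, held flagged Pitx1, Lhx3, Lhx4 and Neurod4, but Tshb did not pass there. A slab holds many tissues, and in bulk RNA fewer cells of a type and less RNA per cell cannot be told apart. Whether any gland stayed attached to the brains when they were taken out is not given in the sources used here.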

How the data were processed

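Single-colour Agilent mouse arrays (design on mm9) were hybridised with RNA of 34 brain fractions of 3 mice, 1 array each, on 5 slides. Per the file headers, the deposited intensities are signals that the authors extracted with Agilent Feature Extraction 10.10.1.1 (background subtracted). Here spots of a probe were averaged without flagged outliers, and log2 was taken relative to the 75th percentile of each array, with no pseudocount. The deposited log2 values (43199 probes, 7 of the 8 members) lay within 0.02 of these after 1 constant per array in 99.9% of cases, and served as an alternative. Well above background means that most spots carried that flag. Members and 18 gene lists, holding 118 genes of which 1 had no probe, were chosen with earlier results of these data known. Genes named were the members, listed genes, the 10 probes most like Cga and Tshb and the 3 most like each other member by Pearson's r, and the 10 leading probes highest in all 3 fractions. Alternatives were median and quantile scaling, normexp in limma 3.58.1 under R 4.3.3 with an offset of 50 and then quantile scaling, same-slide fractions, and other detection flags. Scripts ran in Python 3.11.15 and were tested on simulated data. Coordinates printed are GRCm38.p6 and were not set against the arrays' build. Some listed genes are not reported here by name.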

Additional observations from a re-analysis of the deposited data

How the results depend on the processing

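The differences of Cga and Tshb kept their direction in coronal 7, horizontal 8 and sagittal 6 under every setting run. They moved by less than the SD of the other fractions of the series with median scaling, quantile scaling, the deposited values and same-slide fractions. With normexp and an offset of 50 they moved to 2.25, 3.41 and 2.66 for Cga and to 0.27, 0.67 and 0.31 for Tshb. Of 86 values for the other members, 67 stayed within that SD, 18 moved beyond it and 1, the undetected Gh probe in coronal 1 under normexp, changed sign to -0.011. Detection depended on the flag: with the scanner's weaker flag for a positive and significant signal, 8 members in place of 5 passed in every series, 7 in place of 4 in coronal 7 and 8 in place of 5 in each of horizontal 8 and sagittal 6, with Gh passing in 27 fractions and Pou1f1 in 22. Probes highest in all 3 fractions numbered 22 to 35 in place of 30, of which 19 to 30 were shared with those 30. The r of Cga with Tshb was 0.85 within the horizontal series, 0.23 without the 3 fractions and 0.14 as Spearman's rho. Probes at an r of at least 0.85 with Cga numbered 2 with normexp and 0 without its 3 highest fractions, in place of 1. Signal over background limits Tshb, Pou1f1, Hesx1 and Gh most, since 1 spot per array read each. No paired analysis was possible because fraction numbers are positions along different axes and no comparison between groups was tested.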
